A study of Mus musculus with 8 samples.

Results

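A set of 9 genes for proteins that the liver secretes into the circulation was followed in *Agpat3* knockout (KO) liver, namely *Angptl4*, *Angptl6*, *Angptl8*, *Fetub*, *Ahsg*, *Lect2*, *Inhbe*, *Igf1* and *Igfals*. They were chosen by name, through the RefSeq transcript that each array probe was designed on, and make up 9 of the 22911 genes that the probes could be given. Livers came from male C57BL/6 mice at 10 weeks of age, 4 wild type (WT) and 4 KO, and each liver was hybridized to 1 single-color oligonucleotide array. The KO mice lack *Agpat3* in the whole body, so that a liver value can follow from the loss of the gene in other organs as well. AGPAT3 is an acyltransferase that places docosahexaenoic acid on lysophosphatidic acid during phospholipid synthesis. Each array had between 29886 and 31888 probes well above background, and no spot was saturated. Nothing in the labels says whether the mice were littermates, and the p-values measure the spread between these 8 livers. All arrays shared 1 slide, with WT in 1 row and KO in the other, and an effect of the slide row cannot be told apart from that of genotype.

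Hepatokines are proteins that hepatocytes release to act on other organs. ANGPTL4 and ANGPTL8 belong to a family that restrains lipoprotein lipase, the enzyme that frees fatty acids from circulating triglyceride, in adipose tissue and muscle. Growth hormone acts on its receptor in hepatocytes through JAK2 and STAT5, and this drives the hepatic output of IGF1 and of its carrier, the acid-labile subunit encoded by *Igfals*. In mice the pulsed secretion of growth hormone in males and its steadier secretion in females also set the sex bias of many liver genes.

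The promoters of 4 members are shown because each holds letters known to be recognized by STAT5, FOXO factors, nuclear receptors or ATF4, the factor of the amino acid response. Each run is 220 bases long and begins 250 bases before the annotated start in RefSeq (GRCm38.p6), read in the direction of the gene. The *Igf1* run lies at chr10:87860861-87861080 on the plus strand, the *Igfals* run at chr17:24877981-24878200 on the plus strand, the *Angptl8* run at chr9:21835260-21835479 on the plus strand and the *Inhbe* run at chr10:127351879-127352098 on the minus strand. Capitals mark matches to the motifs searched.
Igf1: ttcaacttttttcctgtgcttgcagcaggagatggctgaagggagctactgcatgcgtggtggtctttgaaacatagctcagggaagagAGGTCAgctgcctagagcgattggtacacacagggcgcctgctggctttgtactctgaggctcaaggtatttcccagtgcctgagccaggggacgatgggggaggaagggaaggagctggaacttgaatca
Igfals: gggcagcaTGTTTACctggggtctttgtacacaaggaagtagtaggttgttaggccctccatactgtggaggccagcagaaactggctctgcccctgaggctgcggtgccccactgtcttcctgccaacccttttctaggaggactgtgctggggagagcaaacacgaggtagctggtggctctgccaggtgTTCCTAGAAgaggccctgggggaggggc
Angptl8: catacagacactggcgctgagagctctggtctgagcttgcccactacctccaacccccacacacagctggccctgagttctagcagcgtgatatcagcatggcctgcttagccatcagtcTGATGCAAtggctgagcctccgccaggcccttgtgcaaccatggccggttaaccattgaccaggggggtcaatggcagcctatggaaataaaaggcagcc
Inhbe: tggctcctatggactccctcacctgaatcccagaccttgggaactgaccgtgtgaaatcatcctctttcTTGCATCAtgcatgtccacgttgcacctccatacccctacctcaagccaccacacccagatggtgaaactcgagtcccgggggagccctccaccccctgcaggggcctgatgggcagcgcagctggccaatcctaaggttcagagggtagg

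The 6 motifs were searched on both strands of the whole windows, which reach from 250 bases before to 50 bases after the start. The STAT5 letters TTCNNNGAA stood 58 bases before the start in the *Igfals* window shown and 236 bases before it in another of the 3 *Igfals* windows, and 8.30% of the 32851 windows of the table held them. The *Igf1* window held no STAT5 match and had 1 nuclear receptor half-site AGGTCA, 161 bases before the start, a motif found in 16.3% of windows. The *Igfals* windows held 3 such half-sites, 2 of them 13 and 5 bases before the start in the window shown, past the end of the printed run. The ATF4 response letters TGATGNAA stood 130 bases before the start of *Angptl8* and, in reverse, 181 bases before that of *Inhbe*, and 3.97% of windows held them. The FOXO letters GTAAACA, present in 3.65% of windows, stood in reverse in the *Igfals* run shown and in 1 of the 2 *Fetub* windows. The sterol response letters TCACNCCAC and the E-box CACGTG, held by 1.24% and 7.15% of windows, were not found in the 11 member windows. None of these motifs overlapped another in the member windows. The table gave windows for 8 of the 9 members, and *Angptl4* has none in it. These matches are a description of letters in a window.

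The targeted gene separated the groups first. With the 75th percentile of the probes on each array set to 0, the log2 signal of *Agpat3* was 5.65, 5.66, 5.80 and 5.88 in the 4 WT livers and -0.48, 0.02, -0.58 and -0.47 in the 4 KO livers. The difference was -6.12 on the log2 scale (95% interval -6.43 to -5.81, limma adjusted p = 4.46e-07). The same scale is used for every level below, each mouse is named by its genotype and number, and a call needed both an adjusted p under 0.2 and more than a 1.5-fold change. By this rule 1.76% of the 14067 named genes tested were called, 1.01% higher and 0.754% lower in KO, and in 9.72% the KO and WT groups did not overlap. Hepatocyte identity was plain in each liver, since all 8 hepatocyte markers tested passed the filter on dim probes and their mean log2 level lay between 8.64 and 8.72 in all 8 mice.

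Of the 9 members, 0 were called. All 9 had 1 probe each, and it was well above background on all 8 arrays. Their median log2 difference was -0.09, beside -0.03 over all genes tested, and 7 were lower and 2 higher in KO by sign alone, beside 8166 lower of the 14067 genes. *Angptl6* and *Ahsg* turned to just above 0 under quantile normalization. Without WT 1, 4 members were lower and the median was 0.02, and without KO 2 or KO 3 it was -0.0089 or -0.020. In 2 members, *Igf1* and *Fetub*, every KO liver lay below every WT liver, and these were the 2 members whose 95% interval left out 0. Of the 14067 genes tested, 828 had every KO liver below every WT liver. In 1963 of them the unadjusted limma p was under 0.05, so that the 95% interval left out 0. For 6 members the interval lay within a 1.5-fold change in either direction. For the other 3, *Angptl4*, *Angptl8* and *Inhbe*, it did not.

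**Figure D1:**
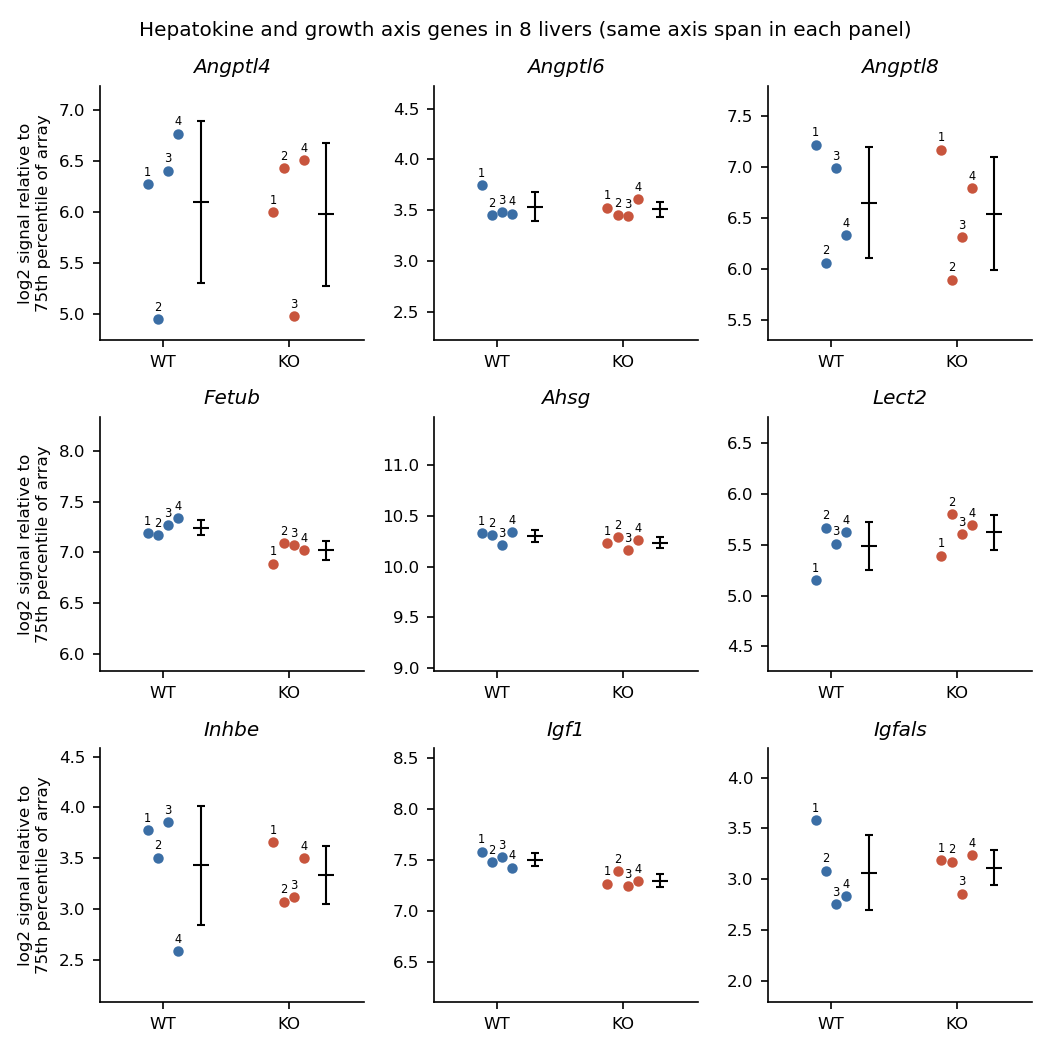
Log2 signal of each member above the 75th percentile of probes on that array (vertical axis, the same span in each panel) in the 4 WT and 4 KO livers, numbered by mouse, with the mean and SD as a bar. KO points lie below all WT points in *Fetub* and *Igf1*, and the widest scatter within a genotype is in *Angptl4*, *Angptl8* and *Inhbe*.

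*Igf1*, which encodes the main endocrine growth factor of postnatal life, was slightly lower in KO liver. Its log2 level was 7.58, 7.48, 7.53 and 7.43 in WT 1 to WT 4 and 7.27, 7.39, 7.24 and 7.29 in KO 1 to KO 4. The lowest WT liver still exceeded the highest KO liver, and the means were 7.51 ± 0.07 and 7.30 ± 0.06 (SD, n = 4 each). The difference of -0.21 (SE 0.07, 95% interval -0.36 to -0.05) corresponded to a KO level of 0.867 times WT. It did not pass the call (limma adjusted p = 0.248), and its exact permutation p of 0.0286, two-sided, is the smallest that 4 against 4 livers allow. Every gene whose groups do not overlap has this exact p, and these were 9.72% of the genes tested. The spread of *Igf1* within a genotype was small, with only 6.90% of all probes tested varying less. In a whole liver, fewer cells expressing a gene and less RNA per cell cannot be told apart.

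*Igfals*, whose product holds IGF1 and its binding protein in a large complex in plasma, did not separate the genotypes. Its log2 level was 3.58, 3.09, 2.76 and 2.84 in WT 1 to WT 4 and 3.19, 3.17, 2.86 and 3.24 in KO 1 to KO 4. The KO values all fell within the WT range. The difference was 0.05 (95% interval -0.37 to 0.47, limma adjusted p = 0.936), and the interval allows a KO level between 0.774 and 1.38 times WT.

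Other genes of the IGF system gave no call either. Among 12 ligands, receptors and carriers of the IGF system that passed the filter, of 17 listed, 0 were called. The median difference was -0.03, near 0, and it was 0.053 without WT 2, 0.0016 without KO 1 and -0.067 without WT 3. The largest difference was in *Igfbp1*, a binding protein that insulin represses, at 4.57, 5.25, 6.87 and 6.77 in WT and 5.80, 7.72, 6.41 and 6.57 in KO. These groups overlapped widely (log2 difference 0.76, limma adjusted p = 0.643), and the difference ran from 0.32 without WT 1 to 1.09 without WT 3. *Igf2*, a fetal growth factor, did not pass the filter. Of 9 genes of growth hormone receptor signaling 0 were called. *Socs3*, an inhibitor of cytokine signaling, differed most, by -0.98 (limma adjusted p = 0.556; -1.45 without KO 3 and -0.55 without WT 2), and it varied from 1.62 to 4.21 among WT and from 1.22 to 3.37 among KO livers.

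Genes that the male pattern of growth hormone raises held 2 calls. Of 14 listed, 2 were called lower in KO, 0 were called higher and 12 were lower by sign, with a median difference of -0.27. In 5 of the 14, every KO liver lay below every WT liver. Over all 14067 genes tested, 0.754% were called lower, 8166 were lower by sign, 828 lay wholly below WT, and the median was -0.03. With the replicate number as a block, 4 genes of the list were called lower. *Cyp7b1*, an oxysterol hydroxylase of the alternative bile acid pathway, was at 7.16, 6.74, 6.93 and 7.33 in WT and 5.82, 6.09, 4.04 and 6.03 in KO. Every KO liver was below every WT liver, KO 3 by far the most (log2 difference -1.55, 95% interval -2.54 to -0.56, limma adjusted p = 0.188). A second probe of *Cyp7b1* gave -1.62 with an adjusted p of 0.208 and was not called. *Selenbp2*, a selenium-binding protein, was at 9.88, 9.73, 9.49 and 9.47 in WT and 9.04, 9.28, 8.36 and 9.09 in KO (log2 difference -0.70, limma adjusted p = 0.191). Here too the groups did not overlap and KO 3 was lowest. *Selenbp1* is a close relative, and cross-hybridization was not tested.

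KO 3 was the lowest of all 8 livers in 12 of these 14 genes. Without it, 1 gene of the list stayed past the call, *Cyp7b1* at -1.06 (limma adjusted p = 0.0538), and the median of the list was -0.15. Leaving out other livers cost calls as well. *Cyp7b1* was called only when KO 3 was the liver left out and *Selenbp2* only when WT 4 was, so that each was lost in 7 of the 8 fits that left out 1 liver. *Selenbp2* was also lost under quantile normalization (-0.63, adjusted p = 0.203). Both were lost when dim probes were kept in the test (adjusted p = 0.403 and 0.421). Of the called list genes described below, *Srebf1*, *Ddit3*, *Enho* and *Hamp2* were lost there too, and *Asns* stayed called (adjusted p = 0.167). Of the female-biased genes 6 of 14 passed the filter and 0 were called. *Cyp2b9*, a cytochrome P450, had the largest difference, at -3.47, -1.01, -0.36 and -1.10 in WT and 0.02, 0.81, 4.21 and 0.72 in KO. Its groups did not overlap, KO 3 was highest, and the difference of 2.92 did not pass the call (limma adjusted p = 0.263). The *Cyp2b9* difference ran from 2.00 without KO 3 to 3.40 without KO 1, and was 2.26 with normexp background correction. With the replicate number as a block, 2 of these 6 genes were called higher, *Cyp2b9* among them (limma adjusted p = 0.121). The numbers were not taken as pairs. *Igf1* was lowest in KO 3 too, at 7.24, though only a little below KO 1 at 7.27.

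**Figure D2:**
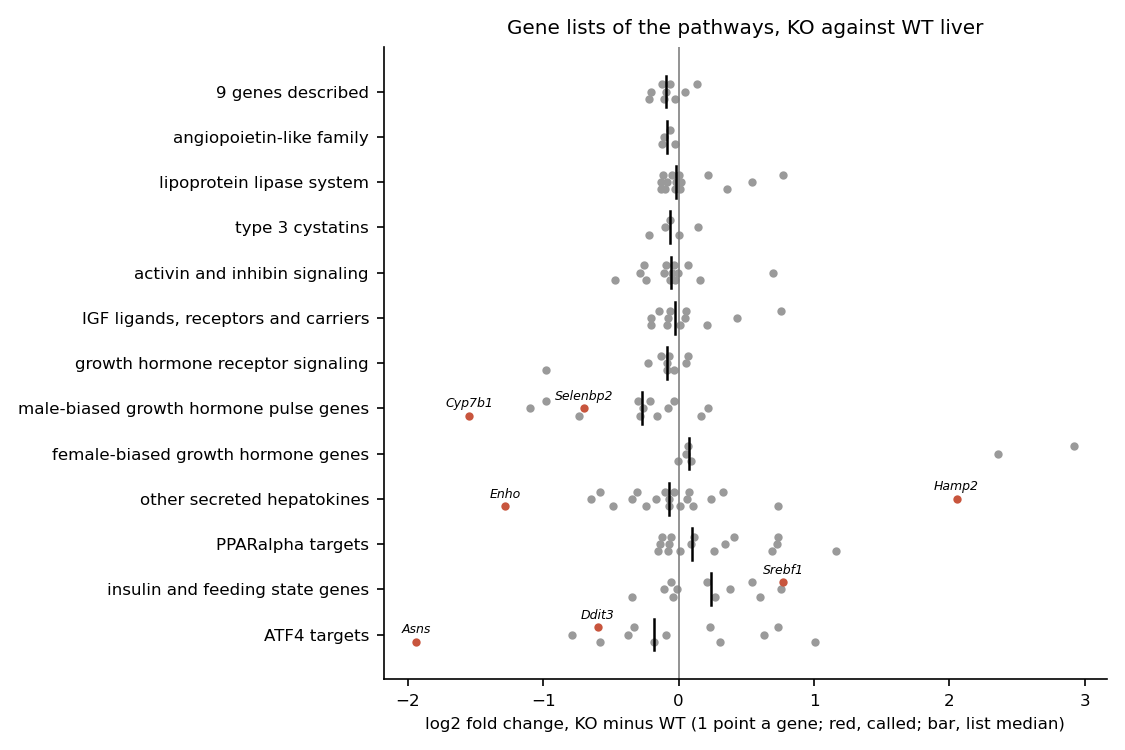
Log2 fold change, KO minus WT, of each gene that passed the filter (horizontal axis, 1 point a gene) in the 9 genes described and in 12 lists of related genes, with called genes in red and named and the list median as a bar. The 9 genes lie between -0.22 and 0.13. Called genes of the lists lie outside that range by the call rule, which needs more than a 1.5-fold change.

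*Fetub* and *Ahsg* encode fetuin-B and fetuin-A, plasma proteins of the type 3 cystatin family. Fetuin-A binds calcium phosphate and inhibits insulin receptor signaling, and fetuin-B inhibits the egg protease ovastacin. The genes are next to each other in the mouse genome, with 0 protein-coding genes between them in RefSeq. *Fetub* was at 7.19, 7.17, 7.27 and 7.34 in WT 1 to WT 4 and 6.89, 7.09, 7.07 and 7.02 in KO 1 to KO 4. The KO livers lay below the WT livers without overlap, with means of 7.02 ± 0.09 and 7.24 ± 0.07 (SD, n = 4 each). The difference of -0.22 (SE 0.07, 95% interval -0.39 to -0.05) put KO at 0.857 times WT and was not called (limma adjusted p = 0.259, exact permutation p = 0.0286). As with *Igf1*, any gene without overlap has this exact p.

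*Ahsg* was at 10.33, 10.31, 10.21 and 10.34 in WT and 10.23, 10.29, 10.16 and 10.26 in KO. These values overlapped, and the gene was among the steadiest on the array, with 4.50% of probes varying less within a genotype. Its difference was -0.06 (95% interval -0.21 to 0.09, limma adjusted p = 0.736), so that the interval allows a KO level between 0.865 and 1.06 times WT. Whether the 2 fetuins differ from each other in their response was not tested. Of the 5 type 3 cystatins 0 were called.

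*Lect2*, a chemotactic protein released by hepatocytes that has been linked to insulin resistance in muscle, was at 5.15, 5.67, 5.51 and 5.62 in WT and 5.39, 5.80, 5.60 and 5.69 in KO. WT 1 and KO 1 were the lowest of their genotypes and the groups overlapped. The difference of 0.13 (95% interval -0.17 to 0.44) was not called (limma adjusted p = 0.725), and without WT 1 it was 0.022.

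**Figure D3:**
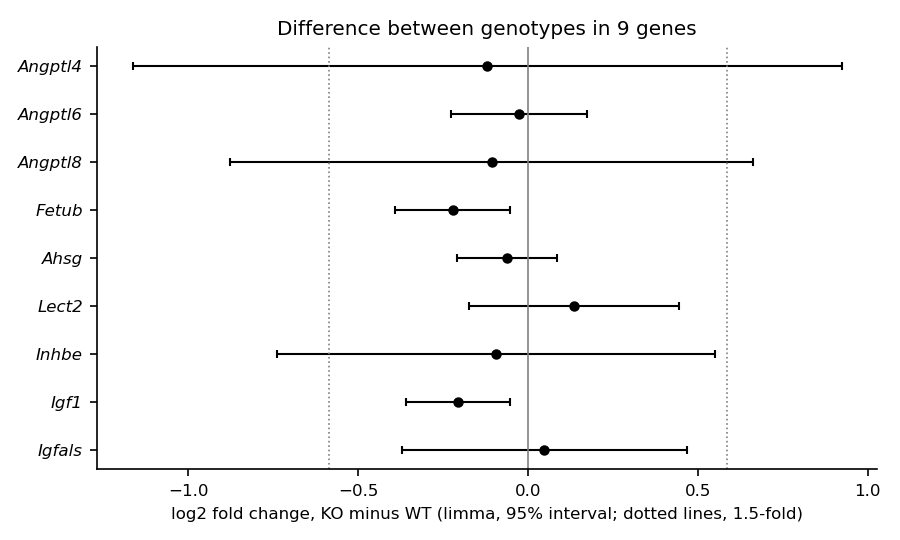
Log2 fold change, KO minus WT, of each member (horizontal axis) with its 95% interval from limma, and dotted lines at a 1.5-fold change. The intervals of *Igf1* and *Fetub* lie below 0 and inside the dotted lines, and those of *Angptl4*, *Angptl8* and *Inhbe* reach past a dotted line.

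The 3 angiopoietin-like members gave no call, and their SD within a genotype ran from 0.114 in *Angptl6* to 0.752 in *Angptl4*. *Angptl4*, which rises in liver on fasting, was at 6.27, 4.94, 6.41 and 6.77 in WT 1 to WT 4 and 6.00, 6.43, 4.97 and 6.51 in KO 1 to KO 4. 1 mouse of each genotype, WT 2 and KO 3, was low and the other 6 lay between 6.00 and 6.77. The whole range was 3.54-fold, and 98.7% of all probes tested varied less within a genotype. The difference between genotypes was -0.12 with a wide interval (-1.16 to 0.92, limma adjusted p = 0.937), which leaves room for a KO level between 0.447 and 1.90 times WT.

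*Angptl8*, which feeding and insulin raise, was at 7.22, 6.06, 6.99 and 6.33 in WT and 7.17, 5.90, 6.31 and 6.80 in KO. WT 2 and KO 2 were the lowest of their genotypes, and the range over all mice was 2.51-fold. The difference was -0.11 (95% interval -0.88 to 0.66, limma adjusted p = 0.921). *Angptl6*, a family member that has been linked to energy expenditure, was at 3.75, 3.45, 3.48 and 3.47 in WT and 3.53, 3.45, 3.45 and 3.61 in KO. Its groups overlapped and spanned 1.23-fold in all (log2 difference -0.03, 95% interval -0.23 to 0.17, limma adjusted p = 0.923).

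A pair of genes of the fasting and feeding list, chosen here after their values were seen, are set beside *Angptl4*. *G6pc*, the last enzyme of glucose output, was at 6.94, 5.30, 6.44 and 7.02 in WT and 7.30, 7.37, 5.69 and 7.52 in KO. *Irs2*, an adaptor of the insulin receptor, was at 2.65, 2.06, 3.54 and 3.84 in WT and 2.81, 3.59, 2.43 and 3.08 in KO. WT 2 and KO 3, the mice with low *Angptl4*, were the lowest of their genotypes in both genes. This held in only these 2 of the 12 genes of the list, and the lowest of all 8 livers was WT 1 in 6 of them, WT 2 in 2 and KO 3 in 1. With 2 mice apart from 6, a relation between these genes cannot be tested here. The feeding state of each mouse at the time of sampling is not given in the sources used here.

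**Figure D4:**
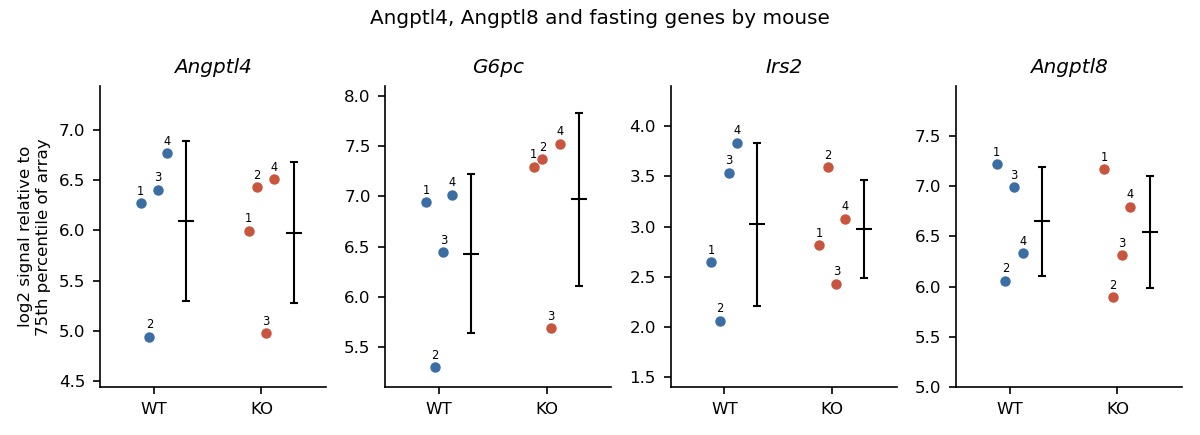
Log2 signal above the 75th percentile of probes on that array (vertical axis) for *Angptl4*, *G6pc*, *Irs2* and *Angptl8* in the 4 WT and 4 KO livers, numbered by mouse, with the mean and SD as a bar. WT 2 and KO 3 are the lowest of their genotypes in *Angptl4*, *G6pc* and *Irs2*, whereas WT 2 and KO 2 are the lowest in *Angptl8*.

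Of the 15 genes of the lipase system that are reported, 0 were called. *Lipg*, endothelial lipase, differed most, at -3.39, -2.40, -2.33 and -1.63 in WT and -1.68, -1.99, -2.04 and -0.97 in KO, and its groups overlapped (log2 difference 0.77, limma adjusted p = 0.429). The difference was 0.45 without WT 1 and 0.39 with normexp. *Lpl*, lipoprotein lipase itself, was picked out after its values were seen. It was at 2.51, 2.47, 2.50 and 2.44 in WT and 2.97, 2.97, 3.31 and 2.83 in KO, with no overlap. Its brightest probe differed by 0.54 (limma adjusted p = 0.0823), just short of the fold limit, which it passed without KO 4 (0.60, adjusted p = 0.0856) and with the mean of its probes (0.61, adjusted p = 0.0624), and its other 2 probes, at 0.62 and 0.66, were called higher. Of the 4 angiopoietin-like genes reported that passed the filter, of 6 listed, 0 were called. Among 16 PPARα targets, *Angptl4* included, 0 were called and *Cyp4a14*, a fatty acid hydroxylase, differed most (1.17, limma adjusted p = 0.457), with 0.72 without KO 3 and 1.64 without KO 4. Another target was called higher without WT 4. Of 12 insulin and feeding genes 1 was called. *Srebf1*, which encodes the lipogenic factor SREBP1, was at 6.08, 6.72, 6.63 and 6.14 in WT and 6.89, 6.87, 7.42 and 7.47 in KO. The groups did not overlap (log2 difference 0.77, limma adjusted p = 0.168), but leaving out any 1 of the 8 livers took the gene past the limit (adjusted p between 0.205 and 0.284). Another gene of the list was called higher without WT 4 or KO 4.

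*Inhbe* encodes the subunit of activin E, a liver hormone of the TGFβ family that restrains lipolysis in adipose tissue. It was at 3.78, 3.51, 3.86 and 2.59 in WT 1 to WT 4 and 3.66, 3.08, 3.12 and 3.50 in KO 1 to KO 4. WT 4 was the lowest of all 8 and the other 3 WT livers were among the higher ones, so that the KO values lay inside the WT range. The difference was -0.09 (95% interval -0.74 to 0.55, limma adjusted p = 0.918), and the interval allows a KO level between 0.600 and 1.46 times WT. Of 14 genes of activin and inhibin signaling that passed the filter, of 16 listed, 0 were called. *Inhba*, another activin subunit, differed most, at 2.28, 0.28, 0.32 and 0.93 in WT and 2.33, 1.56, 1.33 and 1.37 in KO. These groups overlapped (log2 difference 0.70, limma adjusted p = 0.558). Without WT 1 it was called higher (1.14, adjusted p = 0.188), and that fit held 1 higher and 1 lower call in the list. *Acvr1c*, which encodes the type I receptor of activin E, did not pass the filter in liver.

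*Inhbe* is also a target of ATF4, and 2 other targets among the 13 that passed the filter, of 14 listed, were called lower. *Asns*, asparagine synthetase, was at 0.06, 1.08, 0.52 and 1.21 in WT and -0.36, -1.72, -1.34 and -1.44 in KO. The groups did not overlap (log2 difference -1.94, limma adjusted p = 0.0667), and the call held with each liver left out in turn. *Ddit3*, the stress factor CHOP, was at -0.11, 0.03, 0.01 and -0.35 in WT and -0.88, -0.66, -0.48 and -0.79 in KO (log2 difference -0.60, limma adjusted p = 0.0881). Its groups did not overlap either, but the call was lost without WT 2, WT 3, KO 1 or KO 4 (adjusted p = 0.203, 0.227, 0.184 and 0.171, each also with a fold under 1.5) and under normexp background correction, where the difference was -0.49. The median over the list was -0.18, and it ran from -0.29 without WT 1 to -0.068 without WT 3. Of the 13 genes 5 were higher by sign, up to 1.00, and in 1 of them KO lay wholly above WT, but 0 were called higher.

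Among 20 other liver hormones and secreted proteins, 1 was called higher and 1 lower. *Enho*, which encodes the peptide adropin, was at 4.06, 4.91, 4.82 and 5.39 in WT and 3.72, 3.73, 3.57 and 3.05 in KO, and a second probe gave a like difference (-1.28 and -1.32, limma adjusted p = 0.108 for both). KO lay below WT without overlap. The call was lost without WT 2 or WT 3 (adjusted p = 0.228 and 0.244). *Hamp2*, a relative of the iron hormone hepcidin, was at 4.71, 4.38, 4.93 and 3.55 in WT and 5.29, 6.82, 7.02 and 6.65 in KO (log2 difference 2.05, limma adjusted p = 0.0981). Every KO liver was above every WT liver, and the call was lost without WT 2 or KO 2 (adjusted p = 0.204 and 0.219). *Hamp*, hepcidin itself, was at 5.98, 6.31, 6.62 and 6.07 in WT and 5.73, 4.54, 5.67 and 6.43 in KO, overlapping and not called (log2 difference -0.65, limma adjusted p = 0.490). KO 2, at 4.54, was well below every other liver, so the *Hamp* difference leans on that mouse. The 2 transcripts are much alike in sequence, and cross-hybridization was not tested.

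Of the markers of other cell types counted in the lists here, 0 passed the call rule in the fit without a replicate block. Genes outside these counts did pass it. They include the macrophage genes *Marco* (-1.22, limma adjusted p = 0.0983), *Ms4a7* (-0.94, 0.171) and *Clec10a* (-0.76, 0.148), lower in KO. The leukocyte gene *Blnk* was called higher (1.4, limma adjusted p = 0.0448). A change in the share of these cells was not tested. Of 10 stellate cell markers, 8 endothelial markers and 9 Kupffer cell and leukocyte markers that passed the filter, the members of each that differed most were *Col1a1* (-0.95), *Lyve1* (-0.52) and *Ly6c2* (0.35). These values moved with single livers, since *Col1a1* was at -0.48 without WT 2, *Ly6c2* ran from 0.17 to 0.58, and *Lyve1* was called lower without WT 4 (-0.71, adjusted p = 0.0908). A call was also made for 1 stellate marker, higher without KO 1, and 1 acinar marker, higher without WT 4. KO 1 was the lowest of all 8 livers in 6 of the 9 Kupffer cell and leukocyte markers, and their median was -0.07 with all livers, 0.096 without it and 0.021 without WT 4. Of the cholangiocyte, pancreatic acinar and adipose lists, 3 of 6, 5 of 8 and 2 of 6 genes passed the filter, with *Sox9* (-0.64), *Cela1* (-0.54) and *Lep* (-0.10) differing most. *Sox9* was at -0.36 with normexp, and *Lep* ran from -0.15 without WT 3 to -0.031 without WT 4. The adipose genes *Adipoq* and *Plin1* did not pass it. *Hnf4a*, a hepatocyte transcription factor, differed most among the hepatocyte markers (-0.33, limma adjusted p = 0.276). With the mean of its probes the *Hnf4a* difference was -0.21 (limma adjusted p = 0.541). At an adjusted p under 0.2 with no limit on the fold, 4.33% of named genes passed, and *Igf1* and *Fetub* were not among them. Both came under that limit with a trended, robust eBayes (adjusted p = 0.116 and 0.141) and with normexp (0.178 and 0.198), and *Fetub* with quantile normalization (0.173).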

How the data were processed

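RNA from each liver was labeled with Cy3 and hybridized to Agilent mouse arrays. The authors deposited the scanner output of Agilent Feature Extraction, with spot intensity after that software's background correction, and a table of log2 values. Set against the scanner values, the deposited log2 table matched log2 intensity minus a value near the 75th percentile of each array, with medians from -3.53 to -3.44, and it served as an alternative.

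Here, outlier spots were left out, spots of a probe were averaged, and log2 intensity was expressed relative to the 75th percentile of 56605 probes without controls. A probe was kept when it was well above background on all 4 arrays of a genotype (29069 kept), and the probe highest over the 8 arrays stood for a gene. Probes were named through the RefSeq table of GRCm38.p6 (32994 named), which also gave the order of neighbouring genes. The scanner header names mm9, so no probe coordinates are given, and the promoter coordinates are those of the RefSeq promoter windows of GRCm38.p6. KO and WT were compared with limma 3.58.1 in R 4.3.3 (lmFit and eBayes, tested on simulated data), with Benjamini-Hochberg adjustment over all probes kept and a call at fold change over 1.5 and adjusted p under 0.2. These limits follow a plot legend of the study, which does not say whether its p was adjusted. Exact permutation tests used all 70 assignments, two-sided. The number of arrays limits the precision.

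The members and gene lists were chosen with earlier results of these data known. Some genes of the lists are not reported here, and the list counts, medians and plots leave them out. All members, *Agpat3*, and from each list the called genes or, with none called, the gene with the largest change were named, and other genes are given as examples. Alternatives were the background correction (normexp, offset 50), normalization, filters, moderation, a replicate block, leaving out each liver, and the thresholds.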

Additional observations from a re-analysis of the deposited data

Results flagged for a closer look

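*Angptl6* in WT 1 was at 3.75, whereas the other 3 WT livers lay between 3.45 and 3.48, a gap wide enough for Dixon's test at 95%. Of 18 groups examined, the 9 members in each genotype, this was the 1 found, and chance gives about 1 in 20.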

How the results depend on the processing

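With 4 livers a genotype, a change of over 1.5-fold in *Angptl4*, *Angptl8* or *Inhbe* stays within the intervals. No member was called under any alternative tried, and *Igf1* and *Fetub* stayed lower in KO in each, with adjusted p from 0.116 to 0.552 and from 0.141 to 0.556 apart from the fits that left out 1 liver. Quantile normalization turned the sign of *Angptl6* (0.0030) and *Ahsg* (0.0085); the cause was not tested. With 1 liver left out, the log2 difference ran from -0.50 to 0.21 for *Angptl4*, from -0.061 to 0.043 for *Angptl6*, from -0.32 to 0.11 for *Angptl8*, from -0.38 to 0.048 for *Inhbe*, from -0.055 to 0.22 for *Igfals*, from 0.022 to 0.21 for *Lect2*, from -0.090 to -0.037 for *Ahsg*, from -0.24 to -0.18 for *Igf1* and from -0.25 to -0.18 for *Fetub*.

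Of all probes, 273 were called higher and 211 lower. These counts were 180 and 65 with normexp, 122 and 131 with no filter on dim probes, 82 and 35 at adjusted p under 0.05, 534 and 451 at unadjusted p under 0.2, and 557 and 645 with no minimum fold change; 125 were lower among probes above background on all arrays. Leaving out 1 liver gave 152 to 334 higher, the fewest without WT 3 and the most without WT 4, and 105 to 311 lower. Of the list genes, 2 were called higher and 5 lower, against 0 and 1 (*Asns*) with no filter, which tests more probes, 0 and 0 at adjusted p under 0.05, 12 and 13 at unadjusted p under 0.2, 5 higher with no minimum fold change, and 0 to 4 higher and 1 to 5 lower with 1 liver left out.

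WT and KO mice share the numbers 1 to 4, but the deviations of same-numbered mice correlated at 0.33, -0.11, 0.10 and 0.32, and the numbers were not taken as pairs. With the replicate number as a block, 5 list genes were called higher and 8 lower, as the calls in the male-biased list went from 2 to 4 lower and in the female-biased list from 0 to 2 higher, with *Cyp2b9* (adjusted p = 0.121), the PPARα target *Cyp4a14* (0.180) and the marker *Sox9* (0.154) among the new ones, and *Igf1* and *Fetub* had adjusted p of 0.286 and 0.262.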
